A study of Mus musculus with 2 samples.

Results

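The ZBTB family is described here by 34 genes, found as every non-control probe on both arrays whose transcript accession maps to a mouse symbol that begins with Zbtb, with Zbtb7b left out. RefSeq lists 41 such symbols, and 50 probes matched 34 of them (16 genes with 2 probes and 18 with 1), out of 17176 genes named on the array. No probe was matched to Zbtb2, Zbtb10, Zbtb11, Zbtb11os1, Zbtb16, Zbtb42 or Zbtb46, so these genes are not analysed here, among them Zbtb16 (PLZF), the factor of innate-like T cells, and Zbtb46, a marker of classical dendritic cells. Within the family the genes were taken by symbol and not by a measured value. The family itself was chosen with earlier results of these data known.

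The study set CD8+ cytotoxic T cells against CD4+ helper T cells. Both were sorted splenocytes of wild-type mice that the labels call C57B6, with no treatment named in the labels, and 1 one-colour Agilent array was used for each. The labels do not give the age, sex or number of the mice, or the markers of the sort. With 1 array per cell type, no difference below has a replicate check or a test.

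ZBTB proteins join a BTB domain near the amino end, through which they pair and recruit corepressors and the ubiquitin ligase scaffold Cul3, to zinc fingers that bind DNA. Most are known as transcriptional repressors. In lymphocytes the family is known for lineage choices: members direct helper T cell, innate-like T cell and germinal centre programs, and others act in progenitors before the B and T lineages part. One symbol in the set, Zbtb8os, names a gene next to Zbtb8a that encodes archease, a cofactor of tRNA ligation, and not a BTB protein.

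Each level is a processed spot signal divided by the 75th percentile of its own array's non-control spots, so that 1 marks that percentile. The error after each level is the scanner software's own error estimate for the spot (1 spot per probe for every ZBTB probe), and the error of a log2 difference combines both spots' errors. These errors cover the measurement of a spot alone, not the spread between mice or sorts. Probes differ in how well they hybridise, so a level is compared between the arrays for the same probe and gives no order of abundance among genes. A log2 difference is CD8+ minus CD4+, so positive values are higher in CD8+ cells.

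The genes of the sorted surface proteins followed the labels: Cd8a stood at 111.1 in CD8+ cells and 1.05 in CD4+ cells, and Cd4 at 0.147 in CD8+ cells and 0.604 in CD4+ cells. All 5 general T cell markers (Cd2, Cd3d, Cd3e, Cd3g and Cd5) were well above background on both arrays. Between different probes of a gene the log2 difference had an SD of 0.23 over 3972 genes, and of 0.17 over the 12 ZBTB genes with 2 probes above background on both arrays. In bulk RNA, fewer cells of a type and less RNA per cell cannot be told apart.

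Nearly all of the 34 genes with a probe were measured in both cell types, most of them at similar levels. Zbtb7b and the genes with no matched probe are not part of this statement. In CD8+ cells 33 of the 34 genes (97.1%) were well above background, and so were 33 in CD4+ cells (97.1%), the same genes. Over all named genes the share was 70.7% in CD8+ cells and 75% in CD4+ cells, and 69.6% were above background on both. Among symbols of the form Zfp and a digit, mostly other zinc finger genes, 83.9% of 298 were above background on both arrays. Among the Klhl genes, whose proteins carry a BTB domain with Kelch repeats in place of zinc fingers, 71.9% of 32 were. The exception was Zbtb8b, whose single probe stood at 0.0123 ± 0.0070 in CD8+ cells and 0.0081 ± 0.0062 in CD4+ cells and was not well above background on either, so no fold is given for it.

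None of the 33 measured genes reached a 2-fold excess in CD8+ cells, against 1.94% of all 11957 genes above background on both arrays. A single one, Zbtb32, reached a 2-fold excess in CD4+ cells, against 3.83% of all genes. Either way 1 of 33 (3.03%) was 2-fold apart, against 5.77% of all genes, 3.20% of 250 Zfp genes and 4.35% of 23 Klhl genes, and a single gene sets the family's share. The median log2 difference over the 33 genes was 0.02, as it was over all genes (0.02), and the quartiles of the family lay between -0.12 and 0.18, against -0.18 and 0.20 for all genes. Across genes the log2 levels of the arrays correlated with r = 0.983 over the 33 members and 0.983 over all genes, where genes are not independent replicates. Of the members, 21 differed by less than 0.25 on the log2 scale and 6 by 0.5 or more. Those 6, Zbtb32, Zbtb49, Zbtb5, Zbtb18, Zbtb6 and Zbtb8a, were also the ones whose difference exceeded 2 times its spot error.

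**Figure D1:**
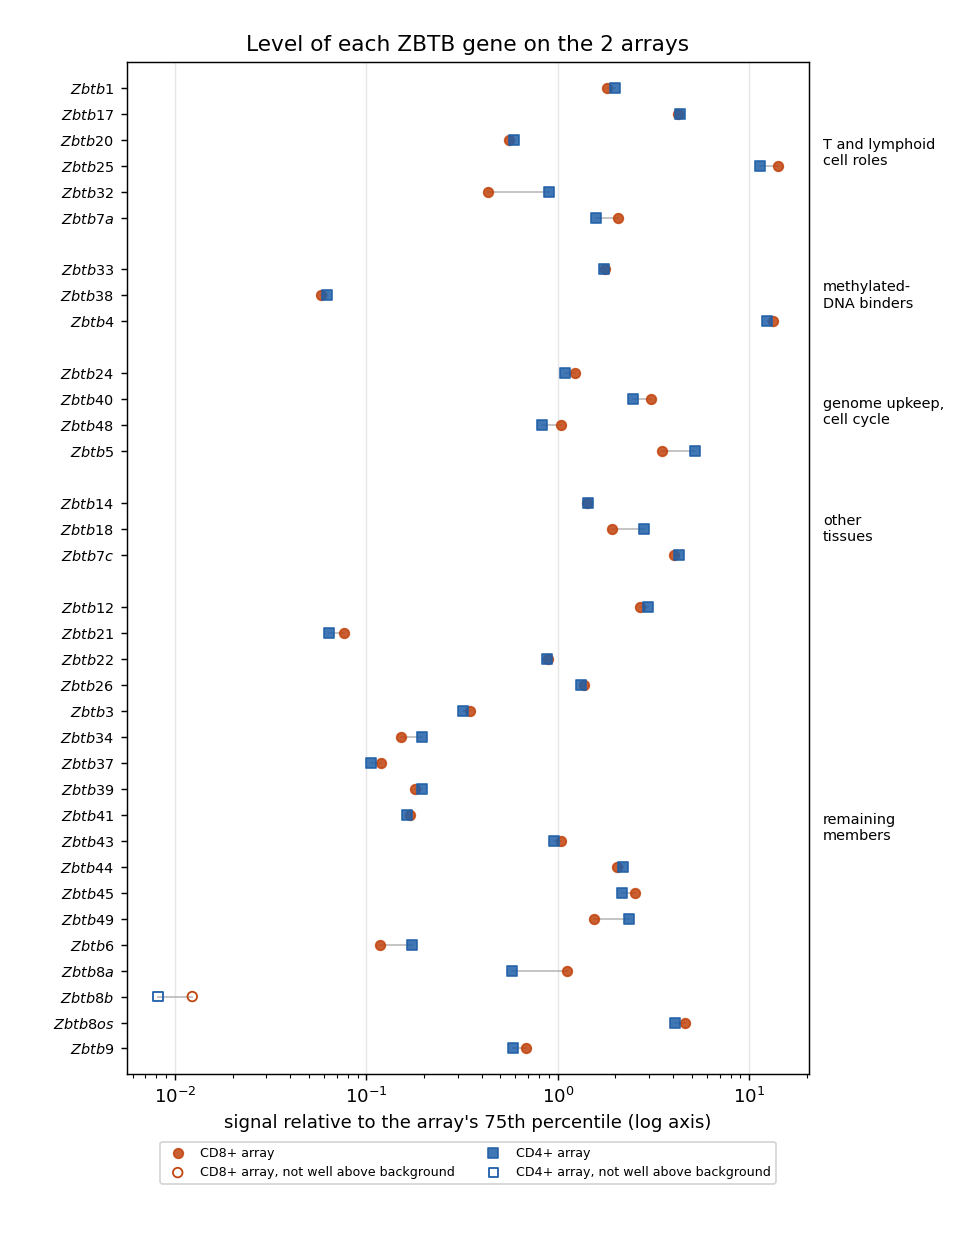
Signal of each ZBTB gene relative to its array's 75th percentile (log axis) in CD8+ cells (circles) and the CD4+ array (squares), 1 array each, grouped by known role; open symbols are not well above background. The symbols of most genes overlap or touch, and the widest gaps among measured genes are those of Zbtb32 (0.432 in CD8+ cells, 0.904 in CD4+ cells) and Zbtb8a (1.11 and 0.573).

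**Figure D2:**
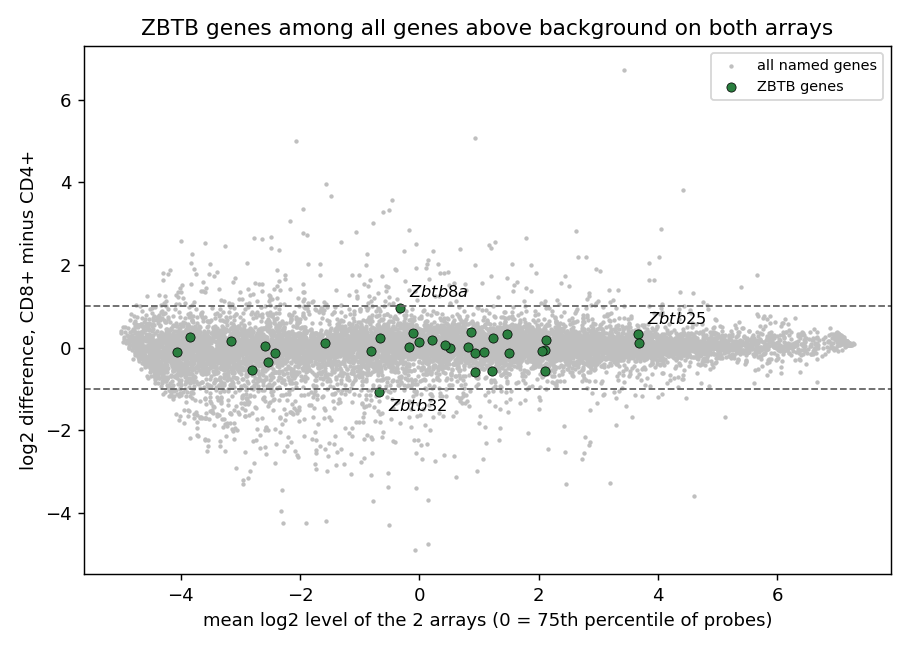
Log2 difference (CD8+ minus CD4+) against the mean log2 level for all 11957 genes above background on both arrays (grey) and the 33 ZBTB genes among them (green); dashed lines mark a 2-fold difference. The ZBTB genes lie between the dashed lines, apart from Zbtb32 at -1.07, and none lies in the upper part of the range of levels. The brightest, Zbtb4 (log2 levels of 3.73 in CD8+ and 3.63 in CD4+ cells) and Zbtb25 (3.82 and 3.51), stand below genes such as Aldoa (mean 7.21).

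Zbtb32 (also called PLZP, ROG or FAZF) is known as a repressor that is induced in activated lymphocytes and restrains T cell proliferation and cytokine genes driven by GATA factors. Its level was 0.432 ± 0.044 in CD8+ cells and 0.904 ± 0.091 in CD4+ cells (processed signals of 194 and 460). The log2 difference was -1.07 ± 0.21, or 2.09-fold lower in CD8+ cells, with 1 probe. Its signal exceeded 67.8% of all probes in CD8+ cells and 74.4% in CD4+ cells, the largest shift in rank among the measured members. The difference kept its direction in every other processing that held the gene but was -0.80 with normexp background correction, -0.83 with the authors' series values and -0.92 with the arrays scaled to their medians, all 3 short of 2-fold.

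Markers of other cell types also differed in the direction of Zbtb32, and their part in its difference was not tested. All 5 of 5 plasma cell markers were lower in CD8+ cells (summed level 3.22 in CD8+ cells and 5.39 in CD4+ cells), with Prdm1 4.87-fold and Irf4 3.09-fold lower. Sdc1 among them was dim, with a log2 difference of -0.46 ± 0.35. Prdm1, Irf4 and Xbp1 in that list are known to be expressed in activated T cells too. Of the 5 dendritic cell markers with a named probe 4 were lower (summed 2.35 and 5.84), as were 4 of 5 myeloid markers (22.6 and 28.6). Of the latter, Cd14 was lower by less than its spot error (-0.17 ± 0.20). The 5 of 5 B cell markers went the other way (28.8 in CD8+ cells and 18.4 in CD4+ cells), and of 4 NK cell markers 2 went each way. The NK sum of 47.1 in CD8+ cells and 7.33 in CD4+ cells is mostly Klrd1 (44.7 and 6.12), while Klrb1c was 5.07-fold and Ncr1 4.40-fold lower in CD8+ cells. Each sum weighs its brightest probe most. Beside these counts, 53.7% of all genes above background on both arrays were higher in CD8+ cells. None of the defining markers was at 0.

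Zbtb8a, a little-studied member, went the other way by nearly as much. It stood at 1.11 ± 0.11 in CD8+ cells and 0.573 ± 0.058 in CD4+ cells, a log2 difference of 0.96 ± 0.21 or 1.94-fold. Its rank was above 76.3% of probes in CD8+ cells and 70.2% in CD4+ cells. With median scaling, which moved all genes upwards by 0.14, the difference was 1.1 and past 2-fold. Zbtb8os, next to it on chromosome 4, differed by 0.18 ± 0.20, with levels of 4.62 ± 0.46 in CD8+ cells and 4.08 ± 0.41 in CD4+ cells.

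The promoters of these 2 genes, which lay farthest apart between the arrays in each direction, are shown with that of Zbtb25. That gene is a brightly measured member with a log2 difference of 0.32. The sequences are RefSeq windows of 300 bases (250 before and 50 after the annotated start) on GRCm38.p6, and capitals mark CG dinucleotides. Zbtb32 lies at chr7:30598860-30599159 on the minus strand (the more CG-rich of 2 annotated starts), Zbtb8a at chr4:129377979-129378278 on the minus strand, and Zbtb25 at chr12:76369415-76369714 on the minus strand.
Zbtb32: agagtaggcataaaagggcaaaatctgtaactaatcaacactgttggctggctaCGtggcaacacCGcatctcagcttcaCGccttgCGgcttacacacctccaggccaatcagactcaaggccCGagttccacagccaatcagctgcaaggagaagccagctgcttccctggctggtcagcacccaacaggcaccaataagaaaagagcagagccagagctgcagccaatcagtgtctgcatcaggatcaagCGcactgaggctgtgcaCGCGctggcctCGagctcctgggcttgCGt
Zbtb8a: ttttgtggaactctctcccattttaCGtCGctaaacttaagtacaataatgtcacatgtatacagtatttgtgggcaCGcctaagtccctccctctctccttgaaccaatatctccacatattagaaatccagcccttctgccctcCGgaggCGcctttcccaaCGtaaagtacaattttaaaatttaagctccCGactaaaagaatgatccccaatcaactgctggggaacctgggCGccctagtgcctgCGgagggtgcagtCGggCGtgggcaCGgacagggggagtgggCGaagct
Zbtb25: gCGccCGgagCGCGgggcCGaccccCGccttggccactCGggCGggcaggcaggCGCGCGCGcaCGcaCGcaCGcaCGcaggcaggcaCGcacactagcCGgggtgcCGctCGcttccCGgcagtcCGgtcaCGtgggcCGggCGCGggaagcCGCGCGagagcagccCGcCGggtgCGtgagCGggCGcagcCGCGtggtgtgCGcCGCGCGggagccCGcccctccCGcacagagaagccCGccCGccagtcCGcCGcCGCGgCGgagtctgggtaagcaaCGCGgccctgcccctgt

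The Zbtb32 window held 10 CG dinucleotides, that of Zbtb8a 13 and that of Zbtb25 51. Of the measured genes 30 had such a window, and taking the most CG-rich start of each gene their median was 29, against 21 over all genes above background on both arrays with a window. At 20 or more CG, a limit chosen after the counts were seen, were 73.3% of these members and 54.6% of those genes. The 22 members with 20 or more CG had a median size of log2 difference of 0.13 and at most 0.60, and the 8 with fewer had a median size of 0.37, as a description with no test. Over all genes above background on both arrays with a window these medians were 0.17 and 0.21. With normexp the 8 members had a median size of 0.22 and the 22 of 0.13, and with the mean over probes the 8 had 0.25. Small and large differences were found at low and at high CG. Zbtb20, at 3 CG, differed by -0.08, and Zbtb3, at 11, by 0.12. Zbtb18, at 51 CG, differed by -0.56, and Zbtb49, at 36, by -0.60. The CG counts of the 5 windows of Zbtb18 run from 1 to 51, however, and which start these cells use was not measured.

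**Figure D3:**
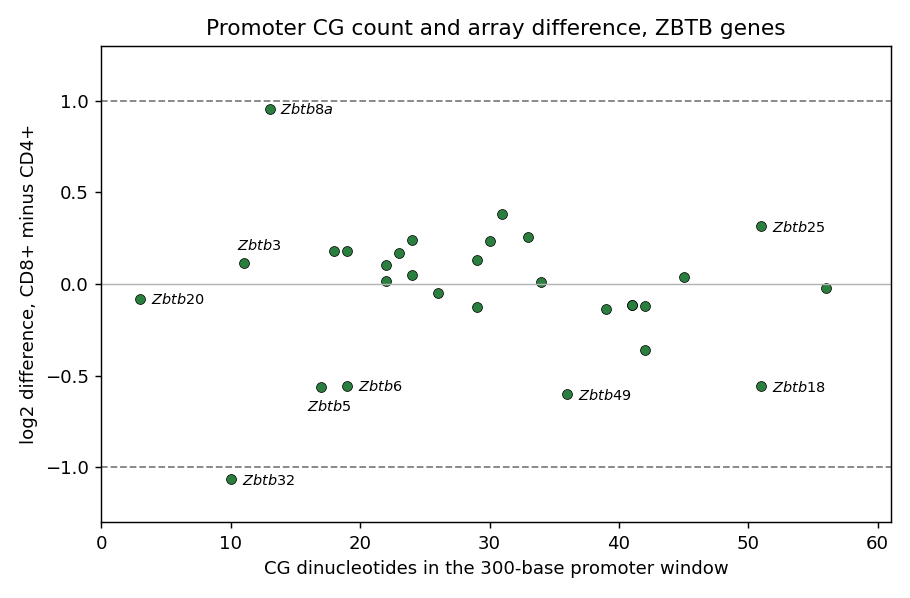
Log2 difference (CD8+ minus CD4+) against the number of CG dinucleotides in the 300-base promoter window for the 30 ZBTB genes above background on both arrays with a window; dashed lines mark a 2-fold difference. Zbtb32 (10 CG) and Zbtb8a (13 CG) lie at the left, and Zbtb25 (51 CG) at the right, at 0.32. Most other genes lie to the right, many of them close to 0, but Zbtb18 (51 CG) lies at -0.56 and Zbtb49 (36 CG) at -0.60. Each gene is placed by its most CG-rich start, and the starts of Zbtb18 run from 1 to 51 CG.

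Short motifs were counted on both strands of the 43 windows of members, and a match is only a description. Here the comparison is with all windows, those of genes not above background included. By the most CG-rich start, the median over all genes with a window is 8 CG, against 21 over those above background on both arrays. Motifs that contain a CG are thus set against CG-poorer windows, and shares over detected genes alone were not computed. CCAAT, the core bound by NF-Y, occurred 4 times in the Zbtb32 window, and 4 or more matches were found in 1.06% of all 32851 windows. That limit is the count of the Zbtb32 window itself, so the share is no test. CCAAT was present in 30.2% of the family's windows and 37.4% of all. CCGGAA, an Ets core that contains a CG, was in 34.9% of the family's windows and 14.9% of all, and GGGCGG, the Sp1 box, also with a CG, in 65.1% and 35.7%. TGTGGT, a Runx core, was in 23.3% and 16.8%. AGATAA, the site of GATA factors, was in 6.98% and 11.2%. CACGTG, the E-box, was in 11.6% and 7.15%, and the Zbtb25 window held 1. TGANTCA, with any base at N and so a wider pattern than the AP-1 site, was in 0 of 43 windows and 7.81% of all. This says only that these letters are not in these windows. TCCTGCNA, the sequence-specific site of Kaiso (Zbtb33), was in 4 windows, belonging to 2 genes, Zbtb18 and Zbtb37 (9.30%, against 4.96% of all). In all these shares each annotated start counts as a window, so the windows of a gene are not independent, and Zbtb18 alone has 5.

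Of the other measured members with known roles in lymphoid cells, Zbtb1, Zbtb17 and Zbtb20 differed little. Zbtb1, needed for lymphoid development, stood at 1.81 ± 0.18 in CD8+ cells and 1.99 ± 0.20 in CD4+ cells (log2 difference -0.14 ± 0.20), and its other probe gave -0.01. Zbtb17 (Miz-1), a Myc partner that early lymphoid progenitors need, stood at 4.22 ± 0.42 and 4.37 ± 0.44 in CD8+ and CD4+ cells (-0.05 ± 0.20). Zbtb20, known for plasma cell survival and for repressing alpha-fetoprotein in liver, stood at 0.556 ± 0.056 and 0.588 ± 0.059 (-0.08 ± 0.21). For these 3 genes both levels lay within their spot errors.

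Zbtb7a (LRF), which steers progenitors between the B and T lineages, was higher in CD8+ cells. It stood at 2.07 ± 0.21 in CD8+ cells and 1.59 ± 0.16 in CD4+ cells, a log2 difference of 0.38 ± 0.20, and its second probe gave 0.38 as well. Zbtb25, reported to repress NFAT-driven transcription in human T cells, had 14.2 ± 1.4 in CD8+ cells and 11.4 ± 1.1 in CD4+ cells (0.32 ± 0.20). Both differences were under 2 times their spot errors. Zbtb7a kept its sign in the 7 alternative processings that changed its value, and Zbtb25 in the 6 that changed its own.

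The members that bind methylated DNA differed by no more than their spot errors. Zbtb4 stood at 13.3 ± 1.3 in CD8+ cells and 12.4 ± 1.2 in CD4+ cells (log2 difference 0.10 ± 0.20, other probe 0.04). Zbtb33 (Kaiso) stood at 1.76 ± 0.18 and 1.75 ± 0.17 in CD8+ and CD4+ cells (0.01 ± 0.20, other probe 0.10). Zbtb38, a dimmer probe, stood at 0.0576 ± 0.0093 and 0.0623 ± 0.0091 (-0.11 ± 0.31). The signs of all 3 changed among the alternatives.

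Of the members tied to genome upkeep or cell cycle control, 3 were higher in CD8+ cells and 1 in CD4+ cells. Zbtb48 (TZAP), which binds telomere repeats, had 1.04 ± 0.10 in CD8+ cells and 0.823 ± 0.082 in CD4+ cells (log2 difference 0.34 ± 0.20). Zbtb40 had 3.08 ± 0.31 and 2.46 ± 0.25 in CD8+ and CD4+ cells (0.32 ± 0.20), while its other probe was not well above background on either array. Zbtb24, which is mutated in human ICF syndrome with loss of DNA methylation at centromeric repeats, had 1.23 ± 0.12 and 1.09 ± 0.11 (0.18 ± 0.20), and its other probe gave -0.04. Zbtb5, known in human cells as a repressor of the cell cycle inhibitor gene CDKN1A, was lower in CD8+ cells, at 3.52 ± 0.35 against 5.20 ± 0.52 in CD4+ cells (-0.56 ± 0.20). Its 2 probes disagreed, since the dimmer one gave -0.06 and the mean over both -0.31.

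Of the members best known from other tissues, Zbtb18 (RP58), a repressor needed for development of the cerebral cortex, was lower in CD8+ cells, at 1.93 ± 0.19 against 2.83 ± 0.28 in CD4+ cells (log2 difference -0.56 ± 0.20). Zbtb14 (ZF5) stood at 1.42 ± 0.14 and 1.44 ± 0.14 in CD8+ and CD4+ cells (-0.02 ± 0.20), while its dimmer probe gave 0.37. Zbtb7c stood at 4.03 ± 0.40 and 4.29 ± 0.43 (-0.09 ± 0.20) by 1 probe, and its other probe was not well above background on either array, so the probes disagree on whether the gene was detected.

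**Figure D4:**
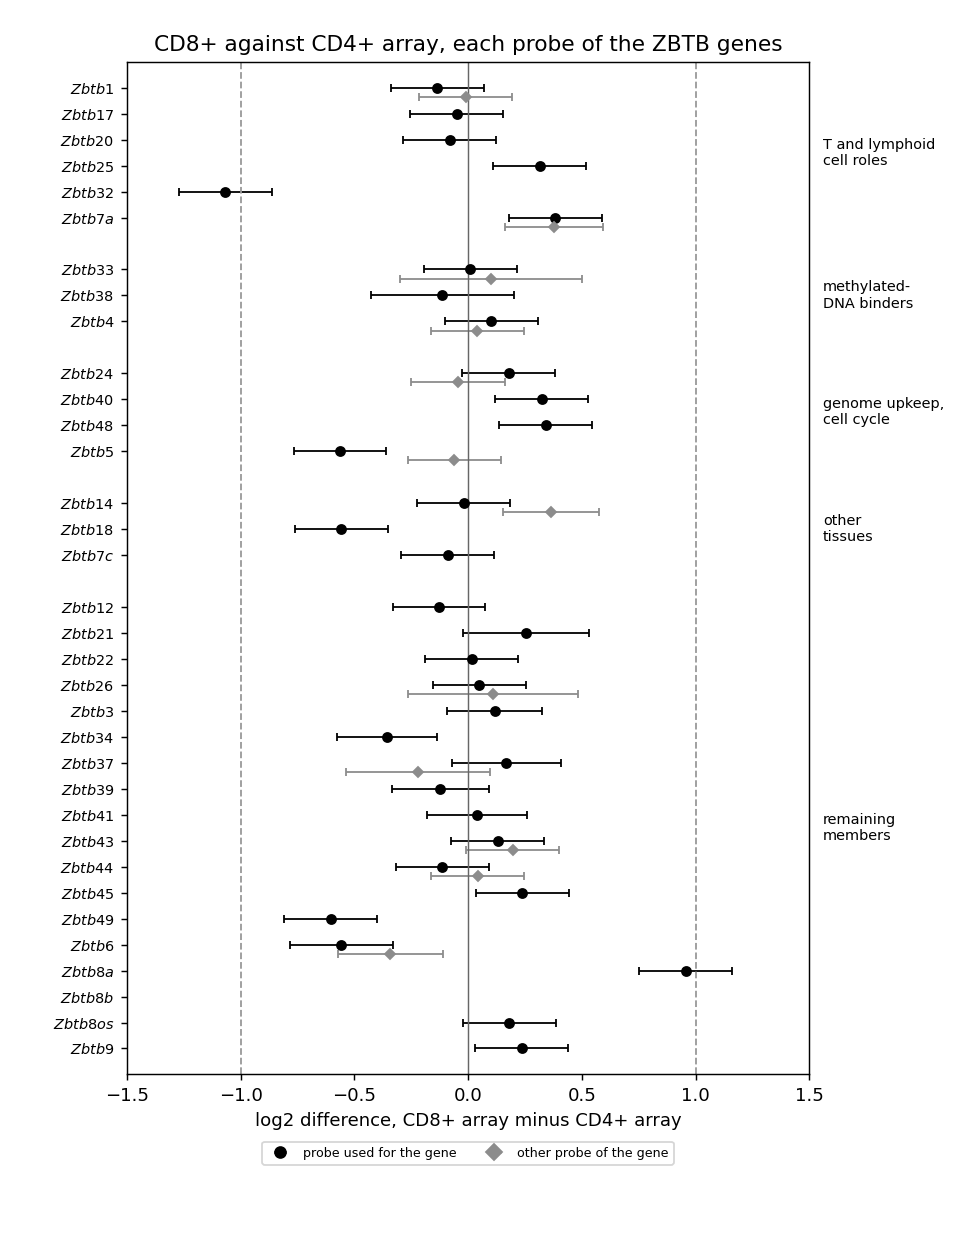
Log2 difference (CD8+ minus CD4+) of each probe above background on both arrays, with the scanner software's spot errors as bars; black circles are the probe used for the gene, grey diamonds its other probe, dashed lines 2-fold, and Zbtb8b has no value. Zbtb32 at -1.07 and Zbtb8a at 0.96 stand apart from the rest, which lie between -0.60 and 0.38.

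Among the remaining 17 measured genes the differences ran from -0.60 to 0.96 with a median of 0.05. Of these genes 11 were above 0 (higher in CD8+ cells) and 6 below, where 53.7% of all genes were above 0. Zbtb49, reported as a cell cycle regulator in human cells, was lower in CD8+ cells, at 1.55 ± 0.16 against 2.35 ± 0.24 in CD4+ cells (-0.60 ± 0.20). Its dim second probe was well above background in CD4+ cells alone, at a log2 level of -4.98, which lies below the dimmest probe above background in CD8+ cells (-4.94), so it gives no bound. Zbtb6 was also lower, at 0.117 ± 0.014 in CD8+ cells and 0.172 ± 0.018 in CD4+ cells (-0.56 ± 0.23, other probe -0.34), but the difference was -0.08 with normexp or with the authors' series values. Zbtb34 followed at 0.151 ± 0.017 in CD8+ cells and 0.194 ± 0.020 in CD4+ cells (-0.36 ± 0.22). The other 13 apart from Zbtb8a, Zbtb8os included, lay between -0.13 and 0.26, from Zbtb12 at the low end to Zbtb21 at the high end.

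Of those 13, 3 were slightly lower in CD8+ cells. Zbtb12, which lies in the major histocompatibility complex region of chromosome 17, stood at 2.70 ± 0.27 in CD8+ cells and 2.95 ± 0.30 in CD4+ cells. Zbtb39 stood at 0.179 ± 0.019 in CD8+ cells and 0.195 ± 0.020 in CD4+ cells. Zbtb44 stood at 2.03 ± 0.20 in CD8+ cells and 2.20 ± 0.22 in CD4+ cells. In each the gap was smaller than the spot errors.

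Nearest to 0 were Zbtb22, Zbtb41 and Zbtb26. Zbtb22 stood at 0.888 ± 0.089 in CD8+ cells and 0.878 ± 0.088 in CD4+ cells. Zbtb41 stood at 0.168 ± 0.018 in CD8+ cells and 0.164 ± 0.017 in CD4+ cells, and Zbtb26 at 1.37 ± 0.14 in CD8+ cells and 1.33 ± 0.13 in CD4+ cells. These 3 differed by 0.02, 0.04 and 0.05 on the log2 scale.

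A further group was somewhat higher in CD8+ cells, with log2 differences of 0.12 to 0.26. Zbtb3 stood at 0.347 ± 0.035 in CD8+ cells and 0.320 ± 0.032 in CD4+ cells, Zbtb43 at 1.04 ± 0.10 and 0.951 ± 0.095, and Zbtb37 at 0.119 ± 0.014 and 0.106 ± 0.012. The second probe of Zbtb43 gave 0.20 and that of Zbtb37 -0.22. Zbtb9 stood at 0.684 ± 0.069 in CD8+ cells and 0.581 ± 0.058 in CD4+ cells, and Zbtb45 at 2.54 ± 0.25 and 2.15 ± 0.22. Zbtb21, known in human cells as a partner of ZBTB14, had 0.0762 ± 0.0102 in CD8+ cells and 0.0639 ± 0.0088 in CD4+ cells, and its other probe was above background in neither cell type. Of these genes all but Zbtb37 stayed above 0 in every alternative, while none reached 2 times its spot error.

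Where 2 probes of a gene were above background on both arrays, their log2 differences were 0.01 to 0.50 apart, with Zbtb7a closest and Zbtb5 farthest. In 4 of these 12 genes (Zbtb14, Zbtb24, Zbtb37 and Zbtb44) the 2 probes had opposite signs. Of the 33 genes, 13 stayed above 0 and 6 below it in every processing that held them, and the sign of the other 14 changed in at least 1. For 7 of the 14 it changed only with a scaling that shifts all genes alike. The 6 were Zbtb5, Zbtb6, Zbtb18, Zbtb32, Zbtb34 and Zbtb49.

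Neighbouring members are given side by side, with no test. On chromosome 12 Zbtb25 had a log2 difference of 0.32 and Zbtb1 of -0.14. On chromosome 2 Zbtb34 had -0.36 beside Zbtb43 at 0.13, and Zbtb6 had -0.56 beside Zbtb26 at 0.05. The gap between Zbtb6 and Zbtb26 was 0.61, but 0.19 after normexp and 0.20 when series values were used, and that between Zbtb34 and Zbtb43 was 0.49, but 0.23 with normexp. On chromosome 4 Zbtb8os and Zbtb8a, both higher in CD8+ cells, had 0.18 and 0.96.

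BTB zinc finger genes that carry other symbols are set beside the family. Of 8 such genes 7 were above background on both arrays, with a median log2 difference of -0.02, and 1 was 2-fold apart, against 5.77% of all genes. That gene was Hic1, a tumour suppressor, at 0.349 ± 0.036 in CD8+ cells and 0.823 ± 0.083 in CD4+ cells (-1.24 ± 0.21, 2.36-fold lower in CD8+ cells). With normexp its difference was -0.86 and with the series values -0.96, both short of 2-fold. Bcl6, the repressor that directs follicular helper T cells and germinal centre B cells, stood at 11.3 ± 1.1 in CD8+ cells and 15.8 ± 1.6 in CD4+ cells (-0.48 ± 0.20). Patz1 had -0.02 and Hic2 had 0.13, the largest positive value among the 7.

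The partners through which ZBTB proteins repress mostly differed little too. None of the 16 measured corepressor and Cul3 genes was 2-fold apart, against 5.77% of all genes, and their median was 0.07. Hdac1, also on the list, had no matched probe and was not measured. By sign 12 were higher in CD8+ cells and 4 in CD4+ cells, where 53.7% of all genes were higher in CD8+ cells. The counts were 16 and 0 with median scaling, which moved the median of all genes to 0.17. They were 9 and 7 with the percentile over detected probes. The largest difference was that of Hdac7, a class IIa histone deacetylase, at 13.6 ± 1.4 in CD8+ cells and 6.99 ± 0.70 in CD4+ cells (0.96 ± 0.20), followed by its relative Hdac4 (0.62 ± 0.20). Hdac7 passed 2-fold with median scaling (1.1) and, by a narrow margin, with the mean over probes. The largest in the other direction were those of Cul3 (-0.05) and Bcorl1 (-0.04). Ncor1, a corepressor that binds BTB domains directly, had 0.09, and Hdac3, its catalytic partner, 0.00.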

How the data were processed

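The deposited scanner files hold linear spot intensity. Feature Extraction 10.1.1.1 wrote them, per the file headers (the submitters' processing notes name 9.1). The processed intensity is background-subtracted within each array by that software and not scaled between arrays. The authors' series values equal the median spot intensity. The other deposited columns used are the software's flags of 0 or 1 per spot.

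From these, log2 of the processed signal minus the log2 of the 75th percentile (449.9 in the CD8+ and 508 in the CD4+ array) was taken over non-control spots. Outlier spots (92 and 99, none of them a ZBTB probe's) were left out. Probes were named by unversioned accession through the RefSeq table of GRCm38.p6 (60.3% of 41170 probes). That table served for names and gene order only, because the file headers name build mm9. A gene took its brightest probe above background on both arrays.

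With 1 array per group no test was possible, and precision is limited by the number of arrays. The family, the lists and the roles that order the text were chosen with earlier results of these data known. Every member could be named, with full values for those with a listed role and for the largest differences. Promoter windows came from RefSeq on GRCm38.p6. The alternatives were normexp (offset 50) on median signals, 4 other scalings or normalizations, the series values, the mean over probes, and changes to the outlier, saturation and dim-probe filters. The tools were limma 3.58.1 in R 4.3.3, and pandas 2.3.3 and numpy 2.4.6 in Python 3.11.15.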

Additional observations from a re-analysis of the deposited data

How the results depend on the processing

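No paired analysis was possible because each cell type had 1 array. The number of ZBTB genes with a 2-fold excess in CD4+ cells, 1 as reported, was 0 with normexp, median scaling, the series values or brighter probes alone, the last of which leaves Zbtb32 out. The number with a 2-fold excess in CD8+ cells, otherwise 0, was 1 with median scaling (Zbtb8a). The family's median difference ran from -0.03 (percentile over detected probes) to 0.16 (median scaling, which moved all genes by 0.14). Over all genes, the counts past 2-fold in the CD8+ and CD4+ arrays were 232 and 458, against 122 and 220 after normexp, 140 and 269 using series values, 102 and 133 with brighter probes alone, 320 and 366 with median scaling, and 617 and 1281 with no filter on dim probes. Of 352 single differences recomputed, 142 equalled the reported value, since the setting left that gene untouched. Of the 210 others, 204 stayed within the SD of 0.23 between probes of a gene. The other 6 belonged to Zbtb32, Zbtb6, Zbtb38 and Zbtb5, the cause was not tested, and for Zbtb38 the series values gave 0.13. Detection of all probes of a gene kept 29 genes in CD8+ cells and 30 in CD4+ cells, and the laxer detection flag gave 34 in each. The recomputed values of the corepressor and other BTB zinc finger lists, the promoter groups and the neighbouring genes were added after seeing the data.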
